A study of Arabidopsis thaliana with 16 samples.

Results

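Loss of MRG1 and MRG2 was examined in warmed Arabidopsis thaliana seedlings already labelled pif4 mutants, by setting the triple mutant mrg1 mrg2 pif4 at 28 °C against pif4 at 28 °C. The comparison used 4 of the 16 RNA-seq libraries of the study, 2 per genotype, and covered the 20075 of 33602 genes in the count table that passed a filter on low counts. All seedlings were Col-0, grown for 6 days on half-strength MS medium in continuous white light at 22 °C, and both genotypes were then held at 28 °C for 3 hours. The other groups used here are the same genotypes left at 22 °C, and wild type (WT) and mrg1 mrg2 at both temperatures, again with 2 libraries each. Whole seedlings were sampled, per the labels, so fewer cells of a type and less RNA per cell cannot be told apart. The labels name the mutants but not their alleles. They also leave out whether both libraries of a genotype were separate cultures, so each p-value measures only the spread between libraries.

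MRG1 and MRG2 are chromodomain proteins that read the lysine methylation which histone H3 carries on active genes, and that recruit the NuA4-type acetyltransferases HAM1 and HAM2, which acetylate histone H4. PIF4 is a bHLH transcription factor that binds G-box and related DNA motifs and drives stem elongation in warmth, in part by raising auxin synthesis. A pif4 mutant still carries both MRG genes, so the comparison asks what their loss adds in warmth when PIF4 is already mutated.

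The mutated genes were checked first. MRG1 (AT4G37280, chromosome 4, 17546577 to 17549559) had 225 and 204 reads in the pif4 libraries and 27 and 48 in the triple mutant libraries. MRG2 (AT1G02740, chromosome 1, 599330 to 602199) had 78 and 71 reads in pif4 and 3 and 4 in the triple mutant. Both genes were far lower in each triple mutant library, with log2 changes of -2.78 ± 0.178 (SE; edgeR quasi-likelihood test with Benjamini-Hochberg adjustment over all genes, adjusted p = 2.07e-14) and -4.62 ± 0.384 (adjusted p = 1.84e-11). PIF4 stood at 79.0 and 77.5 CPM (counts scaled by TMM to a common library size) in pif4, 82.1 and 84.9 CPM in the triple mutant and 94.5 and 86.2 CPM in WT, so read counts per gene do not check the pif4 allele. The 4 libraries held 7880438 to 11271143 counts, and 3 reads, the least taken as detected, corresponded to 0.262 to 0.414 CPM.

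In the triple mutant 680 genes (3.39%) were higher and 1211 genes (6.03%) were lower than in pif4 at an adjusted p under 0.05, which is 9.42% in all. The 2 libraries of 1 genotype lay on the same side of both libraries of the other for 10100 genes (50.3%), and 1889 genes (9.41%) met that and the threshold. The falls were many and small and the rises fewer and larger: 125 genes rose and 78 fell by at least 2-fold. Genes of the photosynthetic antenna, methionine-derived glucosinolates, sulfate assimilation, fatty acid desaturation and plastid DNA were among those that fell, while 19 of 122 pseudogenes, 3 of 12 cold response genes and 5 of 16 sugar starvation genes were among those that rose. With genes split into 3 equal classes by mean CPM, 931 fell and 260 rose in the highest class, and 83 fell and 167 rose in the lowest. This split depends on how libraries are scaled, because the TMM factors moved the median log2 difference by 0.13: with library totals alone 1631 genes were higher and 384 lower. The counts also shrank when 1 library was left out, to 393 higher and 732 lower without triple mutant replicate 1, 369 and 763 without replicate 2, 370 and 851 without pif4 replicate 1, and 368 and 722 without pif4 replicate 2. All groups and genes below were chosen with earlier results of these data known, and each list is given by its counts and median beside those of all genes tested, whose median log2 difference was -0.002.

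**Figure D1:**
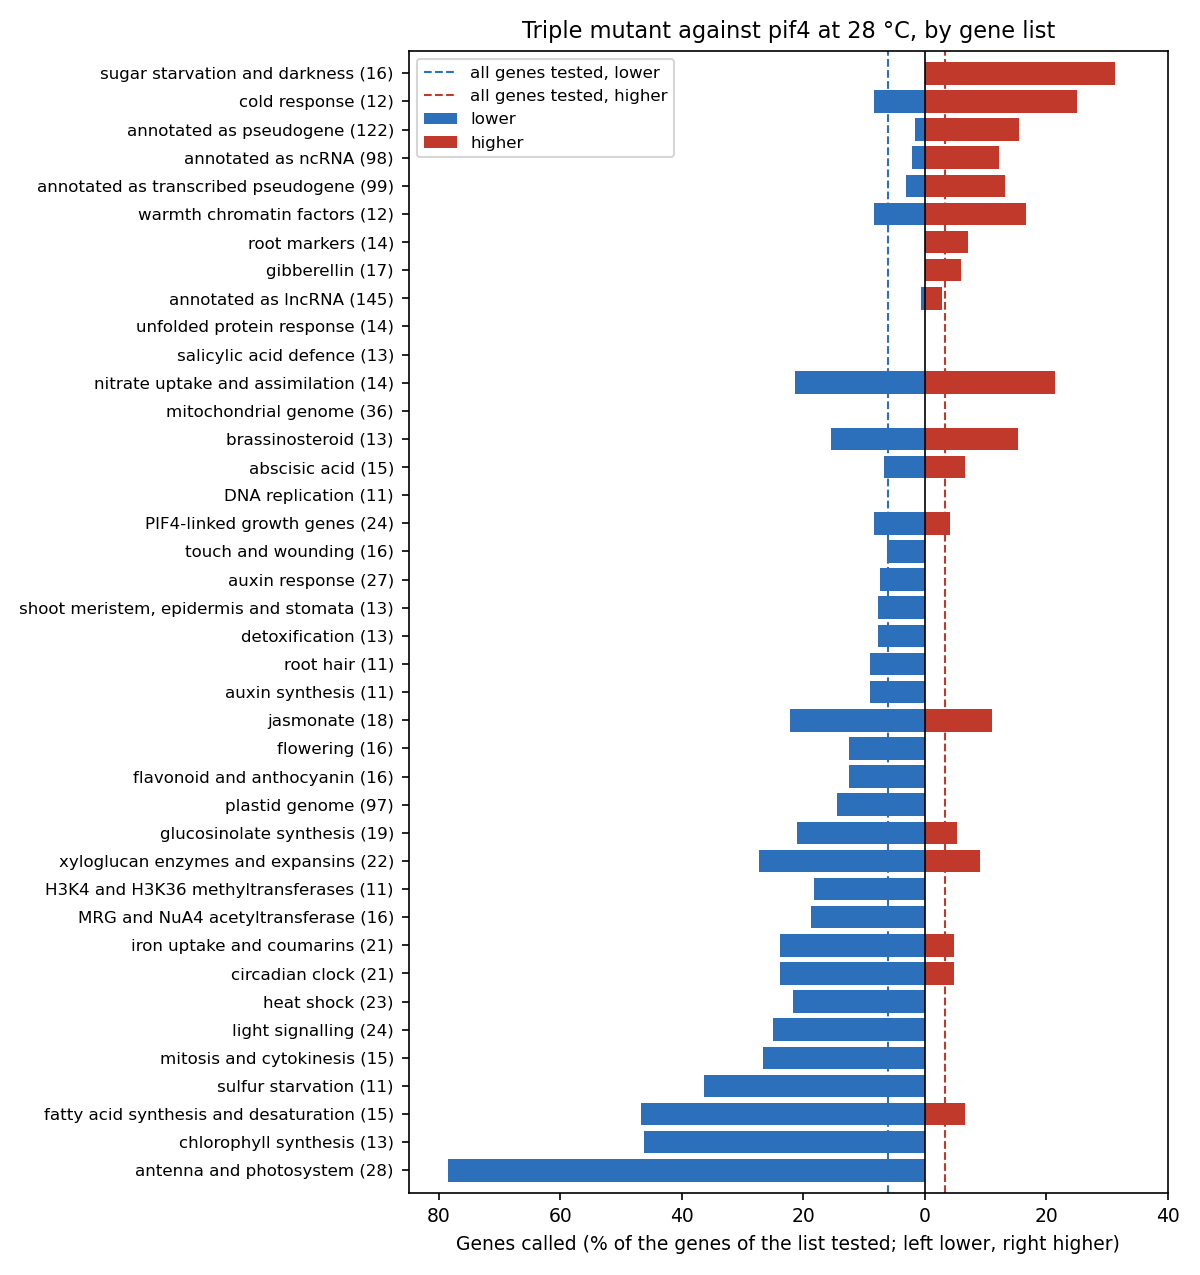
Share of each gene list drawn that was called lower (bars to the left) or higher (bars to the right) in mrg1 mrg2 pif4 than in pif4 at 28 °C, in percent of the members tested, at an edgeR adjusted p under 0.05. The smallest lists are not drawn, among them seed storage and oleosins (6 tested), late embryogenesis abundant (8) and the PIF family (9). Dashed lines mark all genes tested, 6.03% lower and 3.39% higher. Of the antenna and photosystem list 22 of 28 genes were lower, and of the sugar starvation list 5 of 16 were higher.

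Chlorophyll-binding antenna proteins capture light for the photosystems, and their nuclear genes are among the most abundant transcripts of green seedlings. Of 28 antenna and photosystem genes tested 22 fell and 0 rose, and in 26 of 28 both triple mutant libraries lay below both pif4 libraries. The median of the list was a log2 difference of -0.23, with a range from -0.51 to -0.00. LHCA4, an antenna protein of photosystem I, had 6185 and 6259 CPM in pif4 and 4373 and 4377 CPM in the triple mutant, a log2 change of -0.51 ± 0.0393 (edgeR adjusted p = 3.40e-12). LHCA2, another photosystem I antenna protein, went from 4389.52 and 4541 CPM to 3443 and 3371 CPM, a change of -0.39 ± 0.0402 (edgeR adjusted p = 3.17e-09). The 2 genotypes did not overlap for either gene. LHCB6, a minor antenna protein of photosystem II, had 3299 and 3363 CPM in pif4 and 2699.63 and 2658 CPM in the triple mutant (-0.31 ± 0.0436, edgeR adjusted p = 1.85e-06). LHCB4.1, also of photosystem II, had 3509.95 and 3519.69 CPM against 2835 and 2828 CPM (-0.31 ± 0.0427, edgeR adjusted p = 1.44e-06). Not every subunit moved: PSBQ-2 of the oxygen-evolving complex stood at 1261.6 and 1258 CPM against 1275 and 1237 CPM, a difference of -0.00 (edgeR adjusted p = 0.972). With library totals in place of TMM the antenna median was -0.09 and 7 of 28 genes were lower. When any 1 of the 4 libraries was left out, 17 or 18 genes of the list were called lower.

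Because the antenna genes moved together, the 250 bases before their annotated starts were read from the RefSeq sequence of TAIR10.1 and searched on both strands for 4 motifs, none of which contains another. These were the G-box CACGTG and the PBE-box CACATG, both bound by PIF proteins, the I-box GATAAG of light-regulated promoters, and the evening element AAATATCT of clock-controlled genes. The G-box stood in 5 of 28 antenna windows (17.9%) against 7.41% of the 19413 windows of all protein-coding genes tested, and the I-box in 9 of 28 (32.1%) against 12.4%. The PBE-box stood in 3 windows (10.7%, against 11.3% of all) and the evening element in 0 (against 4.92%). Only 3 of the 22 antenna genes that fell held the G-box, and 2 of the 6 that were not called. Those 3 promoters of antenna genes that fell and hold the G-box are printed 5′ to 3′ on the strand of the gene, from LHCB6 (chr1:5447881-5448130, minus strand, in a window that overlaps a neighbouring gene), LHCA4 (chr3:17495034-17495283, minus strand) and LHCB4.1 (chr5:208616-208865, plus strand), with the G-box and I-box in capitals.
LHCB6: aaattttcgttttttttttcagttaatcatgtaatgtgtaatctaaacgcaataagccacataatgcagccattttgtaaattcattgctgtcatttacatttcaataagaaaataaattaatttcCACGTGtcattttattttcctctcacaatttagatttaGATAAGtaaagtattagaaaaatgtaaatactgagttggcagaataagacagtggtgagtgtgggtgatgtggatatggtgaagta
LHCA4: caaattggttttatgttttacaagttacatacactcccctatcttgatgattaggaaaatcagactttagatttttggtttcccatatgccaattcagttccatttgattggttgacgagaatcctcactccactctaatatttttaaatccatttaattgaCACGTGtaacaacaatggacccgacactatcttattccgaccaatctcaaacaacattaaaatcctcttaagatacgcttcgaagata
LHCB4.1: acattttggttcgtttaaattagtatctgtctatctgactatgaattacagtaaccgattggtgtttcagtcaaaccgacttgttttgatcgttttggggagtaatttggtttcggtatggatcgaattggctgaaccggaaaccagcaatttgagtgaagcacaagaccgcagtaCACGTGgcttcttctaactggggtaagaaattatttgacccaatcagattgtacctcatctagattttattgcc
The G-box began 124 bases before the start of LHCB6, 88 before that of LHCA4 and 74 before that of LHCB4.1, and the only I-box among the 3, in LHCB6, began 86 bases before the start. Across all 1188 protein-coding genes that fell the G-box stood in 10.5% of windows, and across the 629 that rose in 6.20%. The evening element stood in 4.55% of windows of genes that fell and 8.11% of those that rose. A match describes the letters only.

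Some abundant photosynthesis genes that are not in that list, named after their values were seen, fell further. LHB1B1, 1 of several near-identical LHCB1 copies among which reads can be misassigned, had 8308 and 8788 CPM in pif4 and 3699.5 and 3823 CPM in the triple mutant (-1.18 ± 0.0578, edgeR adjusted p = 1.56e-17). Its neighbour LHB1B2 fell by 0.81 on the log2 scale, and CAB1 and CAB3, which lie beside LHCB1.1 on chromosome 1 between 10472280 and 10479114, fell by 0.68 and 0.61. RBCS1A, a small subunit of the CO2-fixing enzyme Rubisco, had 10117 and 10240.0 CPM in pif4 and 6545 and 6611 CPM in the triple mutant (-0.63 ± 0.0349, edgeR adjusted p = 3.91e-16). None of these genes overlapped between the genotypes. Of 13 chlorophyll synthesis genes 6 fell and 0 rose, with a median of -0.13 that became 0.00 with library totals, where 1 was lower and 1 higher. GUN5, the magnesium chelatase subunit at the branch point to chlorophyll, had 2155 and 2346 CPM in pif4 and 1697 and 1675 CPM in the triple mutant (-0.42 ± 0.0425, edgeR adjusted p = 2.68e-09). Without triple mutant replicate 1, triple mutant replicate 2 or pif4 replicate 1, only 3 of the 6 chlorophyll genes were called.

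Genes carried on plastid DNA, which are transcribed inside the chloroplast, were lower as well: 14 of 97 tested fell and 0 rose, with a median of -0.33 (-0.19 with library totals, 13 lower). ATCG00800 had 142 and 161 CPM in pif4 and 95.5 and 87.3 CPM in the triple mutant (-0.73 ± 0.0779, edgeR adjusted p = 7.92e-09). ATCG00810 went from 78.8 and 84.9 CPM to 48.3 and 50.3 CPM (-0.73 ± 0.0892, edgeR adjusted p = 1.65e-07). ATCG01130 had 199 and 173 CPM against 114 and 79.3 CPM (-0.95 ± 0.123, edgeR adjusted p = 5.06e-07). The groups were apart for all 3 genes, and the second triple mutant library was the lowest for ATCG01130. The number of plastid genes called lower was 32 without triple mutant replicate 2 and also without pif4 replicate 1, and 12 without either of the other libraries. Plastid transcripts are mostly not polyadenylated, and the libraries came from a kit for mRNA. The plastid share of all counts was 1.78% and 2.90% in the pif4 libraries and 1.68% and 2.59% in the triple mutant libraries, so it differed more between libraries of a genotype than between the genotypes. Replicate 2 had the higher plastid share in 7 of the 8 groups of the study and the higher share of ribosomal RNA reads in all 8, and the part of this in the plastid result was not tested. Of 36 mitochondrial genes 0 were called, with a median of -0.20.

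**Figure D2:**
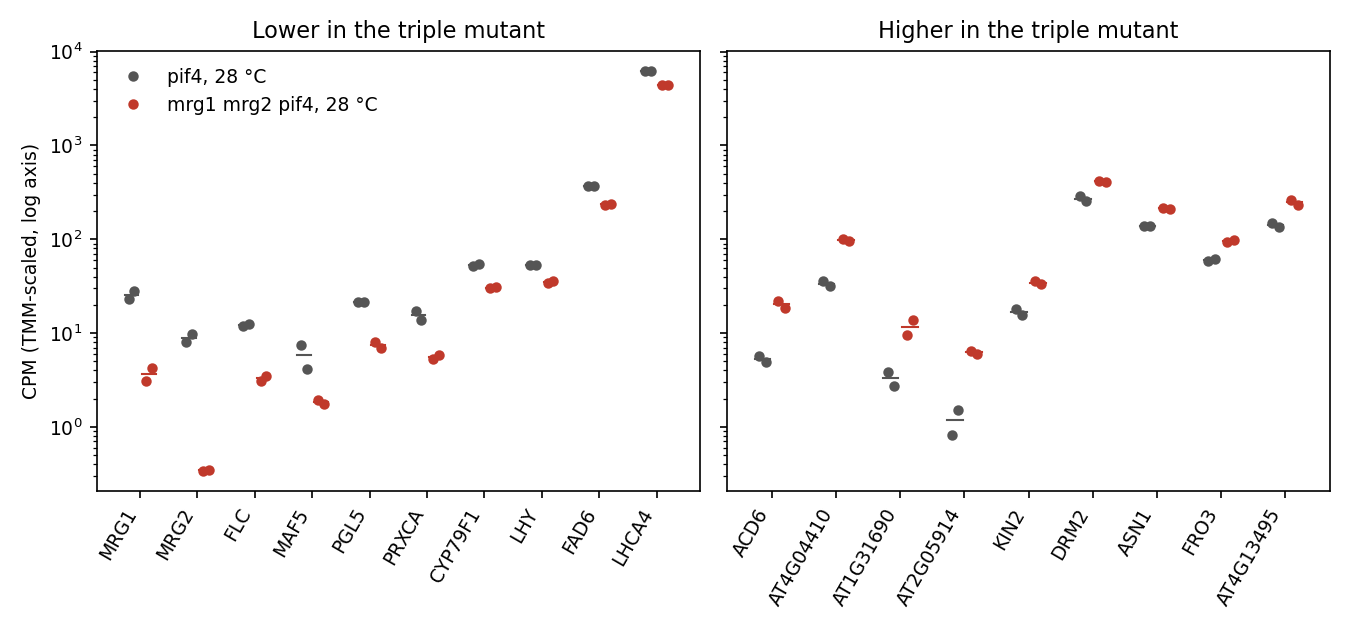
CPM (log axis) of genes lower (1 panel) and higher (the other panel) in mrg1 mrg2 pif4 than in pif4 at 28 °C. Each point is 1 library and each bar the mean of 2 libraries. For each gene drawn both triple mutant libraries lie on the same side of both pif4 libraries, from MRG2 at a log2 change of -4.62 to AT2G05914 at 2.45.

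Glucosinolates are sulfur-containing defence compounds of cabbage relatives, and those with aliphatic side chains are built from methionine. Of 19 glucosinolate genes tested 4 fell and 1 rose (median -0.20, or -0.06 with library totals, with the same counts), and the 4 that fell act in the methionine-derived branch. CYP79F1, which turns chain-elongated methionine into an aldoxime, had 52.0 and 54.6 CPM in pif4 and 29.99 and 30.8 CPM in the triple mutant (-0.81 ± 0.0780, edgeR adjusted p = 7.13e-10). BCAT4, the aminotransferase that starts chain elongation, went from 81.9 and 80.1 CPM to 56.2 and 54.4 CPM (-0.55 ± 0.0692, edgeR adjusted p = 2.64e-07). MAM1, which condenses each added carbon unit, had 118 and 121 CPM against 87.6 and 91.0 CPM (-0.42 ± 0.0683, edgeR adjusted p = 2.89e-05). For these genes and for CYP83A1, which acts after CYP79F1 and fell by 0.37, every triple mutant library lay below every pif4 library. The member that rose, CYP83B1, acts in the tryptophan-derived branch and was higher by 0.27 (edgeR adjusted p = 0.0048, or 0.0976 without triple mutant replicate 1 and 0.0631 without pif4 replicate 1). GSTU20, a glutathione transferase named after its values were seen, fell from 106 and 104 CPM to 65.0 and 69.3 CPM (-0.64 ± 0.0641, edgeR adjusted p = 1.77e-09).

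Sulfate supplies the sulfur for these compounds. Of 11 sulfur starvation genes 4 fell and 0 rose (median -0.33, or -0.19 and 3 lower with library totals). The adenosine phosphosulfate reductase gene APR3 had 50.5 and 54.5 CPM in pif4 and 36.5 and 33.0 CPM in the triple mutant (-0.60 ± 0.0827, edgeR adjusted p = 1.89e-06). The root sulfate transporter gene SULTR1;2 went from 47.8 and 53.4 CPM to 36.5 and 35.3 CPM (-0.49 ± 0.0936, edgeR adjusted p = 0.000295). APS1, the ATP sulfurylase that activates sulfate, was named after its values were seen and had 264 and 261 CPM against 187 and 179 CPM (-0.52 ± 0.0542, edgeR adjusted p = 4.31e-09). The genotypes did not overlap for any of the 3.

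Lipid genes moved in both directions, with 7 lower and 1 higher of 15 fatty acid synthesis and desaturation genes (median -0.22; with library totals -0.09, 4 lower and 2 higher). FAD6, the plastid desaturase that forms linoleic acid, had 366 and 367 CPM in pif4 and 234 and 238 CPM in the triple mutant (-0.63 ± 0.0497, edgeR adjusted p = 4.38e-12). CER6, which elongates very long chain fatty acids for wax, went from 439 and 462 CPM to 345 and 334 CPM (-0.41 ± 0.05003, edgeR adjusted p = 1.65e-07). ADS2, a desaturase linked to cold, rose from 61.2 and 65.5 CPM to 80.2 and 81.5 CPM (0.35 ± 0.0692, edgeR adjusted p = 0.000431). In each case the 2 genotypes were apart. Of 22 genes for xyloglucan enzymes and expansins, which loosen cell walls, 6 fell and 2 rose (median -0.18; with library totals -0.04, 3 lower and 3 higher). The expansin gene EXPA8 had 60.2 and 63.7 CPM against 42.8 and 41.9 CPM (-0.55 ± 0.0784, edgeR adjusted p = 3.24e-06), and the xyloglucan endotransglucosylase gene XTH4 had 501 and 504 CPM against 387 and 373 CPM (-0.40 ± 0.0484, edgeR adjusted p = 1.03e-07).

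Among 24 growth genes linked to PIF4, 1 rose and 2 fell, of 11 auxin synthesis genes 1 fell, of 27 auxin response genes 2 fell, and of 9 PIF family genes 0 were called. With library totals the growth genes gave 2 higher and 1 lower, and 0 auxin synthesis or auxin response genes were called. Of 23 heat shock genes 5 fell and 0 rose (3 without pif4 replicate 2; median -0.20, or -0.07 with library totals, 3 lower and 1 higher). HSP101, a protein disaggregase needed for heat tolerance, had 31.9 and 31.0 CPM in pif4 and 21.0 and 22.5 CPM in the triple mutant (-0.53 ± 0.116, edgeR adjusted p = 0.00171). The small heat shock gene HSP17.6A had 34 and 28 reads against 8 and 8 (-2.19 ± 0.449, edgeR adjusted p = 0.000728). Both genes were lower in both triple mutant libraries. Of 21 clock genes 5 fell and 1 rose, with a median of -0.08 that turned to 0.05 with library totals, where 1 fell and 3 rose. LHY, a morning transcription factor of the clock, had 53.0 and 53.8 CPM in pif4 and 34.5 and 35.9 CPM in the triple mutant (-0.60 ± 0.0727, edgeR adjusted p = 1.41e-07). LOX2, the lipoxygenase that starts jasmonate synthesis, went from 61.8 and 70.5 CPM to 41.5 and 45.5 CPM (-0.60 ± 0.0771, edgeR adjusted p = 4.48e-07), whereas OPR3, a later enzyme of that pathway, went from 19.9 and 17.79 CPM to 30.1 and 28.9 CPM (0.64 ± 0.117, edgeR adjusted p = 0.000168). Over 18 jasmonate genes 4 fell and 2 rose (2 and 2 with library totals, 2 and 1 without triple mutant replicate 1). Of 13 brassinosteroid genes 2 rose and 2 fell (median -0.07; with library totals 0.07, 2 higher and 0 lower). DET2, which acts in brassinosteroid synthesis, rose from 12.4 and 10.1 CPM to 19.0 and 19.0 CPM (0.74 ± 0.148, edgeR adjusted p = 0.00055).

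FLC, the MADS-box repressor of flowering, was among the genes with the largest falls. It had 11.9 and 12.4 CPM in pif4 and 3.08 and 3.496 CPM in the triple mutant (-1.87 ± 0.227, edgeR adjusted p = 1.36e-07). PRXCA, a cell wall peroxidase gene, went from 17.2 and 13.7 CPM to 5.24 and 5.77 CPM (-1.49 ± 0.176, edgeR adjusted p = 7.92e-08). PGL5, a 6-phosphogluconolactonase gene, had 21.7 CPM in both pif4 libraries and 8.10 and 6.90 CPM in the triple mutant (-1.54 ± 0.160, edgeR adjusted p = 3.82e-09). For all 3 the lower pif4 library was over 2-fold above the higher triple mutant library. A row of 5 neighbouring genes on chromosome 4 (11844506 to 11857362), annotated as lipid-transfer-like proteins and picked out after their values were seen, fell together. AT4G22485 in that row had 146 and 157 CPM against 78.6 and 80.4 CPM (-0.93 ± 0.0736, edgeR adjusted p = 5.01e-12), and AT4G22505 had 86.2 and 75.2 CPM against 37.9 and 30.2 CPM (-1.26 ± 0.113, edgeR adjusted p = 1.55e-10). Reads could be shared between such similar neighbours.

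Of 122 genes annotated as pseudogenes 19 rose (15.6%, beside 3.39% of all genes) and 2 fell, with a median of 0.19 (0.32 with library totals). Of 98 genes annotated as ncRNA 12 rose and 2 fell (median 0.25), and of 145 annotated as lncRNA 4 rose, which is near the share of all genes, and 1 fell. With library totals 26 pseudogenes, 19 ncRNA genes and 11 lncRNA genes were higher. AT4G04410, a pseudogene on chromosome 4 (2189515 to 2193763), had 35.5 and 32.0 CPM in pif4 and 101 and 96.7 CPM in the triple mutant (1.55 ± 0.0894, edgeR adjusted p = 1.19e-15). SADHU5-1, a member of a family of non-coding retroposons, had 9 and 12 reads against 40 and 57 (1.94 ± 0.335, edgeR adjusted p = 7.86e-05). AT4G13495, a non-coding RNA gene that overlaps the microRNA precursors MIR850 and MIR863, so that their reads cannot be told apart, went from 149 and 137 CPM to 264 and 233 CPM (0.80 ± 0.0624, edgeR adjusted p = 3.95e-12). In all 3 the genotypes did not overlap. AT2G05914, a lncRNA that lies antisense to another gene, had 8 and 11 reads in pif4 and 57 and 68 in the triple mutant (2.45 ± 0.366, edgeR adjusted p = 6.80e-06), and whether counting used strand is not given. The number of pseudogenes that rose was 10 without triple mutant replicate 2, 12 without either pif4 library and 18 without triple mutant replicate 1. For ncRNA genes it was 7 without triple mutant replicate 1, 8 without pif4 replicate 1 and 7 without pif4 replicate 2.

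Protein-coding genes with large rises included defence and metabolic genes. ACD6, an ankyrin-repeat membrane protein that promotes salicylic acid defence, had 5.66 and 4.96 CPM in pif4 and 21.9 and 18.6 CPM in the triple mutant (1.91 ± 0.159, edgeR adjusted p = 1.85e-11), while of 13 salicylic acid defence genes 0 were called (2 higher with library totals). AT1G31690, a copper amine oxidase gene, went from 3.81 and 2.76 CPM to 9.46 and 13.8 CPM (1.81 ± 0.208, edgeR adjusted p = 3.85e-08). AT2G43570, a chitinase gene, had 1.54 and 2.76 CPM against 6.84 and 6.38 CPM (1.66 ± 0.306, edgeR adjusted p = 0.000188). Each of these genes was higher in both triple mutant libraries than in either pif4 library. Of 16 genes marking sugar starvation and darkness 5 rose and 0 fell (3 without pif4 replicate 2; median 0.04, or 0.18 with library totals, 6 higher). ASN1, an asparagine synthetase that stores nitrogen when carbon is short, had 140.1 and 139.6 CPM in pif4 and 217 and 211 CPM in the triple mutant (0.61 ± 0.0696, edgeR adjusted p = 3.12e-08). BCAT2, which degrades branched-chain amino acids, went from 5.35 and 5.52 CPM to 13.1 and 13.8 CPM (1.31 ± 0.203, edgeR adjusted p = 1.36e-05). THA1, a threonine aldolase gene, went from 13.6 and 15.6 CPM to 30.6 and 33.2 CPM (1.14 ± 0.148, edgeR adjusted p = 5.27e-07). Of 12 cold response genes 3 rose and 1 fell (median 0.20, or 0.33 with library totals, 5 higher and 0 lower), among them KIN2, which had 18.0 and 15.6 CPM in pif4 and 36.1 and 33.0 CPM in the triple mutant (1.03 ± 0.109, edgeR adjusted p = 6.22e-09). FRO3, a mitochondrial ferric reductase gene, rose from 58.8 and 62.3 CPM to 93.4 and 97.1 CPM (0.65 ± 0.0752, edgeR adjusted p = 3.92e-08), while 5 of 21 iron genes fell (1 without triple mutant replicate 1, 1 with library totals, and 3 without any other library), with a median of -0.34.

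Transcripts of some seed storage proteins set the pif4 libraries at 28 °C apart. The summed level of 11 seed storage and oleosin genes was 78.2 and 78.9 CPM in pif4 at 28 °C, 10.03 and 7.52 CPM in the triple mutant at 28 °C, and between 2.59 and 10.7 CPM in the libraries of the other 6 groups. Most of the sum in pif4 at 28 °C came from CRA1 (41.76 and 39.85 CPM) and CRU3 (25.72 and 29.51 CPM). Only 6 of the 11 genes passed the filter, of which 4 were lower and 0 higher (3 lower with library totals). CRA1, a cruciferin, had 406 and 289 reads in pif4 and 43 and 35 in the triple mutant (-3.39 ± 0.251, edgeR adjusted p = 9.29e-13). CRU3, another cruciferin, had 250 and 214 reads against 2 and 0, a ratio of 276 with an exact 95% interval of 76.1 to 2290 that covers counting error only. In the other 6 groups CRU3 had 0 to 20 reads per library. Both genes were high only in the 2 pif4 libraries at 28 °C, while SESA1, a seed albumin, had 0 reads in all 16 libraries. CRU2 had 0 reads in both pif4 libraries at 28 °C. The oleosin gene OLEO2 had 17 and 8 reads there, beside 17 and 9 in WT at 28 °C. PAP85, a vicilin-like storage protein, had 8.54 and 8.41 CPM in pif4 and 0.342 and 0.437 CPM in the triple mutant (edgeR adjusted p = 2.29e-08). The summed level of 10 late embryogenesis genes did not follow, at 89.2 and 82.2 CPM in pif4 and 94.1 and 88.8 CPM in the triple mutant. Root markers summed to 2735 and 2719 CPM against 2618 and 2556 CPM, and shoot meristem, epidermis and stomata markers to 624 and 634 CPM against 572 and 580 CPM. What part such differences in tissue or in remaining seed material have in the other results was not tested.

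A pair of genes had most of their reads in the pif4 single mutant at both temperatures. AT2G01422, a non-coding RNA gene on chromosome 2 (183940 to 184734), had 135 and 83 reads in pif4 at 28 °C and 0 and 1 in the triple mutant, a ratio of 260 (exact 95% interval 46.1 to 10300), and 140 and 176 against 1 and 4 reads at 22 °C, a ratio of 65.4 (27.7 to 203). AT1G63540, annotated as a hydroxyproline-rich glycoprotein, had 50 and 43 reads against 1 and 0 at 28 °C (ratio 111, 19.4 to 4420) and 35 and 20 against 1 and 0 at 22 °C (ratio 56.9, 9.80 to 2290). WT and mrg1 mrg2 libraries held 0 to 11 reads of AT2G01422 and 0 to 6 of AT1G63540.

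**Figure D3:**
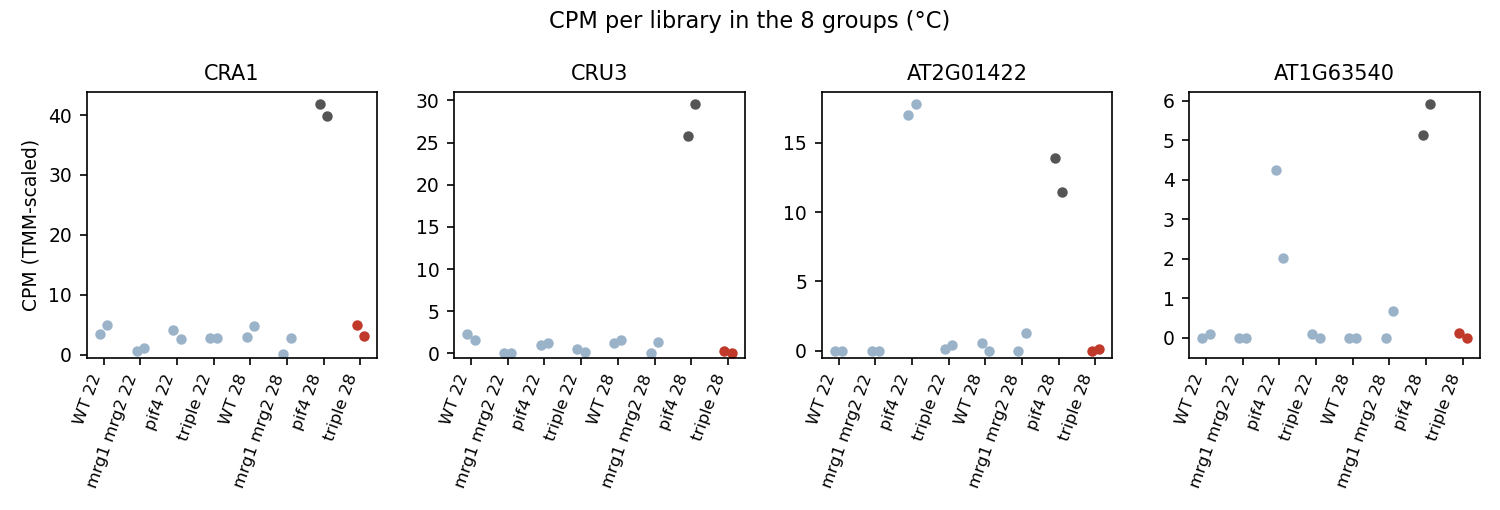
CPM of CRA1, CRU3, AT2G01422 and AT1G63540 in the 8 groups, with 1 point per library. The cruciferin genes CRA1 and CRU3 are high only in pif4 at 28 °C, and AT2G01422 and AT1G63540 are high in pif4 at both temperatures.

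The same loss of MRG1 and MRG2 was then read in 3 comparisons that share no library with the one above. At 22 °C 1282 genes (6.39%) differed between the triple mutant and pif4, 656 higher (3.27%) and 626 lower (3.12%; 790 and 223 with library totals). Of the genes higher at 28 °C 290 were also higher at 22 °C, which is 42.6% of the first list and 44.2% of the second, and 354 were lower in both, 29.2% and 56.5% of the lists. The sign at 22 °C was the same for 91.5% of the genes that rose and 87.3% of those that fell at 28 °C. Of all genes tested, 50.3% had a positive and 49.7% a negative difference at 22 °C. In the WT background at 28 °C 2830 genes (14.1%) differed between mrg1 mrg2 and WT, 1344 higher (6.69%) and 1486 lower (7.4%; 1298 and 929 with library totals). Of these 271 were higher in both (39.9% and 20.2%) and 474 lower in both (39.1% and 31.9%), with 22 and 49 called the opposite way. In the WT background at 22 °C 4918 genes (24.5%) differed, 2469 higher (12.3%) and 2449 lower (12.2%). There 204 of the 680 genes that rose were also higher (8.26% of those higher in mrg1 mrg2) and 415 lower in both (34.3% and 16.9%), while 73 of the genes that rose and 219 of those that fell in the triple mutant were called the opposite way. The sign was the same for 71.0% of the genes that rose and 64.1% of those that fell, beside 50.5% positive and 49.5% negative among all genes tested. At 22 °C 26 of 28 antenna genes were higher in mrg1 mrg2 than in WT. Across all genes tested, which are not independent replicates, the log2 differences of the triple mutant at 28 °C correlated with r = 0.41 with those of the triple mutant at 22 °C, r = 0.29 with those of mrg1 mrg2 at 28 °C and r = 0.18 with those of mrg1 mrg2 at 22 °C. Genes higher in all 4 comparisons of MRG loss numbered 102 (0.508%) and lower in all 4 151 (0.752%). AT4G04410 rose by 1.55 here, 1.71 at 22 °C, 1.99 in mrg1 mrg2 at 28 °C and 1.77 in mrg1 mrg2 at 22 °C on the log2 scale, and FLC fell by 1.87, 1.56, 1.00 and 0.87 in the same order.

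**Figure D4:**
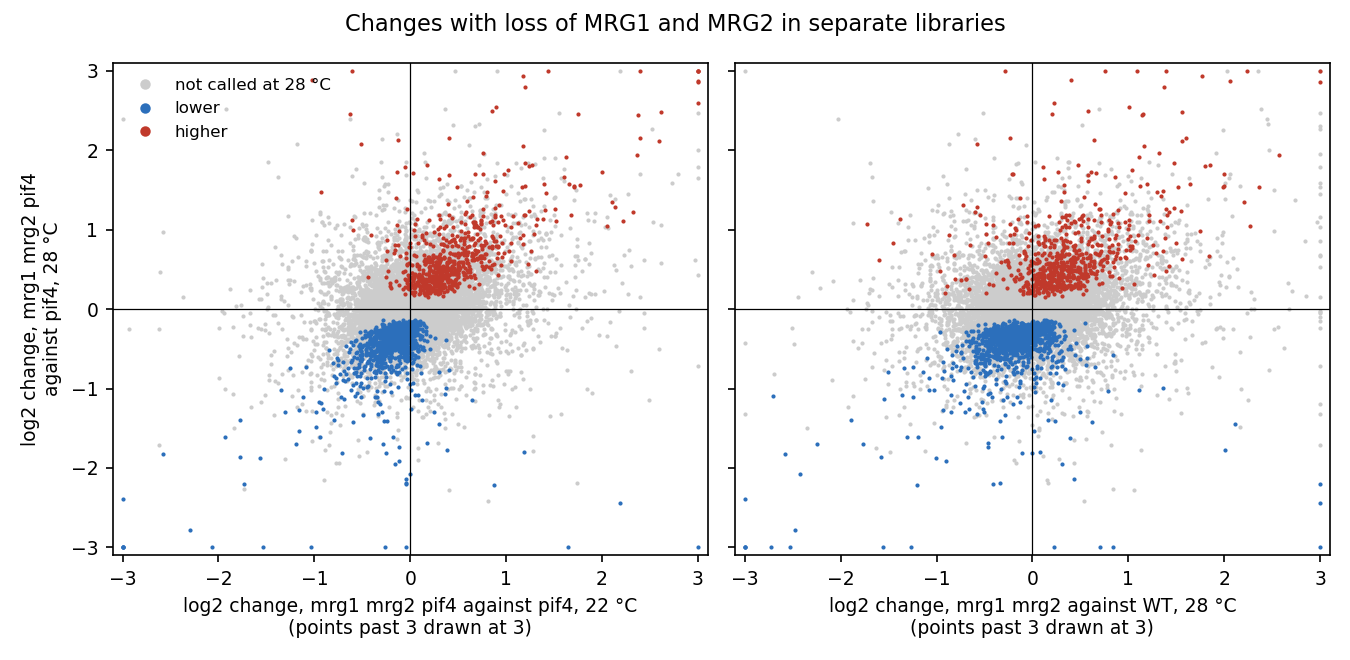
Log2 difference of mrg1 mrg2 pif4 against pif4 at 28 °C (y axis), with 1 point per gene tested. The x axes show the same genotypes at 22 °C (first panel) and mrg1 mrg2 against WT at 28 °C (second panel). Points past 3 are drawn at 3. Across genes r was 0.412 for the first panel and 0.289 for the second.

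Whether the change differed between 28 °C and 22 °C was tested as an interaction, which shares all its 28 °C libraries with the main comparison. It called 13 genes higher (0.0648%) and 90 lower (0.448%), 0.513% in all, which became 8 and 13 with library totals, and 3 to 13 and 32 to 67 when any 1 library was left out. CYP79F1 and GSTU20 fell more at 28 °C under every alternative tried. CYP79F1 stood at 79.7 and 82.0 CPM in pif4 and 79.1 and 79.4 CPM in the triple mutant at 22 °C, and the difference between the temperatures was -0.78 ± 0.106 (edgeR adjusted p = 8.76e-05). For GSTU20 it was -0.59 (edgeR adjusted p = 0.000241). BCAT4, at 92.5 and 95.7 CPM against 95.6 and 95.3 CPM at 22 °C, gave -0.57 ± 0.0962 (edgeR adjusted p = 0.00113, or 0.0699 with library totals). LHY, at 172 and 197 CPM against 177 and 176 CPM, gave -0.53 ± 0.0966 (edgeR adjusted p = 0.00239, or 0.108 with library totals). RBCS1A gave -0.42 (edgeR adjusted p = 6.24e-06, or 0.0532 with library totals). For CYP79F1, BCAT4 and LHY every 28 °C library of either genotype lay below every 22 °C library. Of 28 antenna genes 9 fell more at 28 °C, but 0 did with library totals or without pif4 22 °C replicate 2, 1 without pif4 28 °C replicate 2, 2 without triple mutant 22 °C replicate 1 or triple mutant 28 °C replicate 2, and 5 without triple mutant 28 °C replicate 1. Outside that list, LHB1B1, LHB1B2, CAB1 and CAB3 were lower in the triple mutant than in pif4 at 22 °C too (-0.93, -0.67, -0.45 and -0.22). The difference between the temperatures was not called for LHB1B1, LHB1B2 or CAB1 (edgeR adjusted p = 0.210, 0.399 and 0.0769). It was called for CAB3 (-0.39, edgeR adjusted p = 0.00469, or 0.226 with library totals). Of 19 glucosinolate genes 4 fell more at 28 °C (2 without triple mutant 28 °C replicate 2, 1 with library totals).

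Whether loss of the MRG genes acted differently in the pif4 and WT backgrounds at 28 °C was tested the same way, and 234 genes were higher (1.17%) and 513 lower (2.56%; 3.72% in all; 302 and 147 with library totals). Of 28 antenna genes 25 had a lower change in the pif4 background and 0 a higher one, and 22 to 26 did when any 1 library was left out, but 5 did with library totals. Their own values were 22 lower and 0 higher in the triple mutant against pif4, and 2 lower and 10 higher in mrg1 mrg2 against WT. LHB1B1, LHB1B2 and CAB1, outside that list, also fell in mrg1 mrg2 against WT at 28 °C. Their log2 changes there were -0.76, -0.49 and -0.29 (edgeR adjusted p = 1.36e-12, 1.33e-10 and 7.03e-06), while CAB3 was not called (-0.14). Each of these genes fell more in the pif4 background, though LHB1B2 lost that call with library totals (edgeR adjusted p = 0.173). LHCA2 differed by -0.39 between pif4 and the triple mutant and by -0.00 between WT, at 3677 and 3664 CPM, and mrg1 mrg2, at 3541 and 3779 CPM (difference of the changes -0.39 ± 0.0567, edgeR adjusted p = 1.66e-05, or 0.0600 with library totals). The 28 genes summed to 83580 and 84820 CPM in pif4, 69100 and 68860 CPM in the triple mutant, 71130 and 70440 CPM in WT and 70030 and 76400 CPM in mrg1 mrg2 at 28 °C, so the pif4 libraries stood above the other 3 genotypes. Of 19 glucosinolate genes 7 had a lower change in the pif4 background and 0 a higher one, or 4 and 0 with library totals. CYP79F1 fell by 0.81 there and differed by 0.18 in mrg1 mrg2 against WT (difference -0.99 ± 0.108, edgeR adjusted p = 6.50e-08), and for BCAT4 the values were -0.55 and 0.28 (difference -0.83 ± 0.0974, edgeR adjusted p = 2.53e-07).

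Sugar starvation genes went the other way, with 7 of 16 having a higher change in the pif4 background and 0 a lower one. In mrg1 mrg2 against WT at 28 °C 11 of these genes fell and 0 rose, where 5 rose and 0 fell in the triple mutant against pif4. ASN1 went from 113 and 104 CPM in WT to 86.6 and 92.2 CPM in mrg1 mrg2, against the rise from 140.1 and 139.6 CPM to 217 and 211 CPM in the pif4 background (difference 0.89 ± 0.100, edgeR adjusted p = 1.09e-07). THA1 fell from 14.2 and 12.7 CPM to 6.16 and 3.97 CPM in the WT background and rose in the pif4 background (difference 2.52 ± 0.243, edgeR adjusted p = 4.40e-09). BCAT2 had 7.05 and 6.63 CPM in WT and 3.38 and 5.11 CPM in mrg1 mrg2 (difference 2.04 ± 0.317, edgeR adjusted p = 4.16e-05). The direction of the change was thus opposite in the 2 backgrounds for all 3 genes, and the test of the difference held without any 1 library. PGL5 did not differ detectably in the WT background, at 9.28 and 13.1 CPM in WT and 12.2 and 9.99 CPM in mrg1 mrg2, and its fall in the pif4 background was larger (difference -1.55 ± 0.232, edgeR adjusted p = 2.21e-05).

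**Figure D5:**
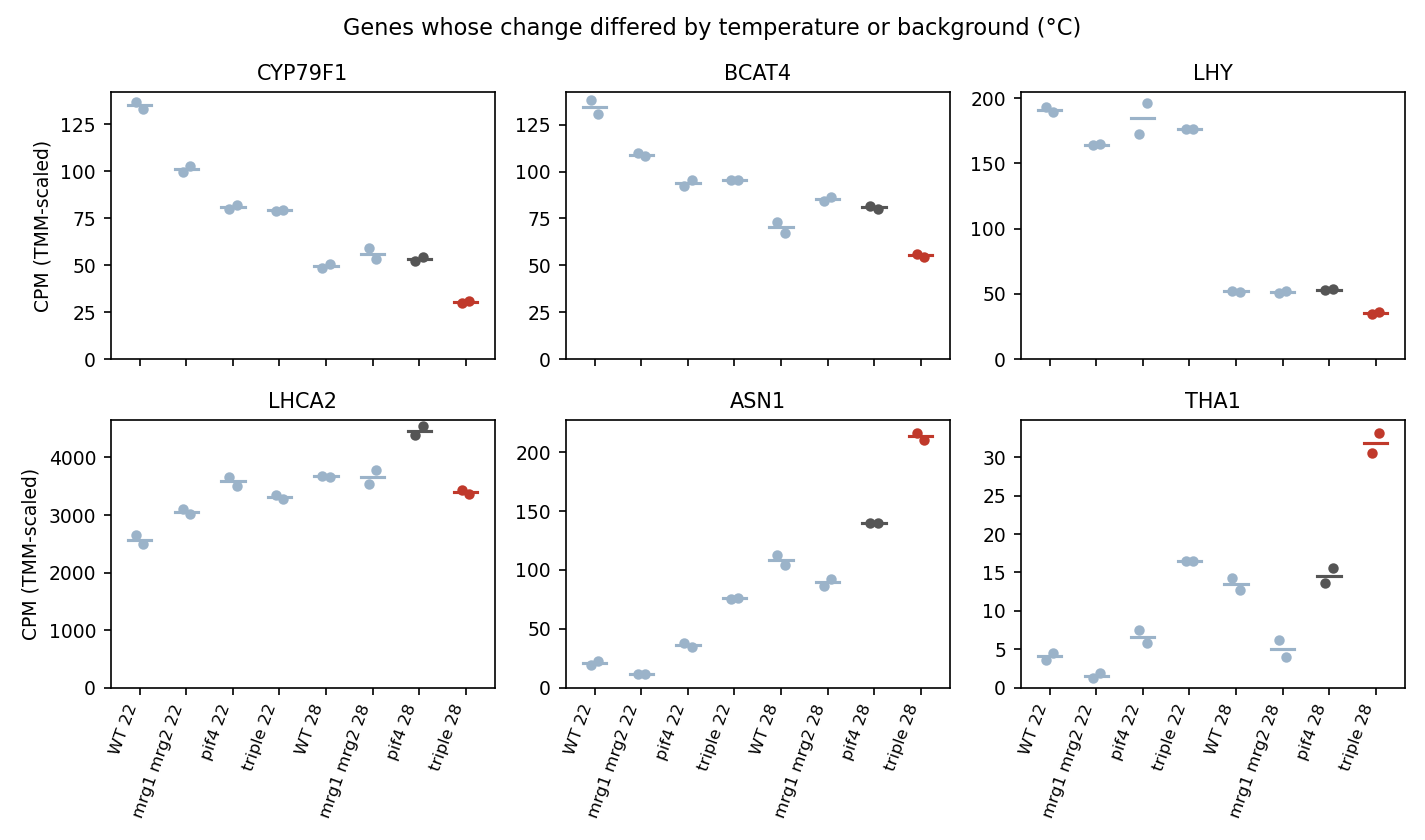
CPM of CYP79F1, BCAT4, LHY, LHCA2, ASN1 and THA1 in the 8 groups, with 1 point per library and bars at the mean of 2 libraries. At 28 °C CYP79F1, BCAT4 and LHY are lowest in the triple mutant, LHCA2 is highest in pif4, and ASN1 and THA1 are highest in the triple mutant and lowest in mrg1 mrg2.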

How the data were processed

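Seedling RNA was isolated with a Tiangen kit and turned into libraries with a KAPA stranded mRNA-seq kit, per the labels' protocols. The authors deposited 1 table of raw counts per gene for 16 libraries, with no normalization. Per the submitters' processing notes, reads went through cutadapt, HISAT2, SAMtools and featureCounts with the build TAIR10. Which versions, annotation and strand option they used is not given in the sources used here. Hence reads shared by near-identical copies or by genes overlapping on either strand cannot be assigned with certainty. Reads are not tagged by molecule, so read intervals and floors cover counting error only. The table had 0 lines without a gene ID and 0 unused sample columns. Names and positions came from RefSeq's TAIR10.1 annotation, in which 32835 of 33602 IDs had an entry.

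Counts were tested with edgeR 4.0.16 (limma 3.58.1) in R 4.3.3. filterByExpr removed genes with low counts (min.count 10, min.total.count 15), libraries were scaled by TMM, and all 16 libraries were fitted as 8 groups by the quasi-likelihood method (8 residual degrees of freedom, median prior degrees of freedom 29.1, common biological coefficient of variation 5.74%). Tests were two-sided, with Benjamini-Hochberg adjustment over all 20075 genes, and standard errors are approximate (log2 change over the root of F). Named genes are the 15 with the largest rise and fall among called genes with at least 5 CPM and no overlap, and 4 per list by p. To these were added up to 10 genes called in all 4 comparisons of MRG loss, ranked by their smallest absolute change. The largest of each interaction were added too. Most other genes are marked as chosen after their values were seen. Some further list members, such as LHCB6, LHCB4.1, CYP83B1 and PSBQ-2, are described beside the named genes without that mark. The members and lists were chosen with earlier results of these data known. Libraries with the same replicate number deviated together only weakly across genes (correlations of 0.00244 to 0.0685 within a temperature, all positive), and the numbers were not used as pairs. Such correlations over all genes cannot show whether some genes shifted together. Replicate 2 had the higher share of ribosomal RNA reads and of mitochondrial reads in all 8 groups. Fitting a replicate block raised the calls of the main comparison to 803 higher and 1438 lower. DESeq2 1.42.0 served as an alternative. In counts simulated for the triple mutant against pif4 at 28 °C, with 200 of 19946 genes changed, edgeR recovered 40% of 1.5-fold and 79% of 2-fold changes, and 8.46% of its calls were false. The simulation used the dispersion of the fit without the further spread estimated per gene, and changed fewer genes than were called in the data. Its rates therefore need not hold for the real comparison.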

Additional observations from a re-analysis of the deposited data

Results flagged for a closer look

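The change from pif4 to the triple mutant differed between 28 °C and 22 °C for 13 genes higher and 90 lower, and between the pif4 and WT backgrounds at 28 °C for 234 higher and 513 lower, by the edgeR interaction tests. Between the temperatures the log2 difference was -3.13 for CRA1, -2.16 for the late embryogenesis gene M17, 0.84 for the auxin carrier gene PIN2, -1.37 for the glutathione transferase gene GSTF7, -1.21 for the thalianol synthase gene THAS1, 1.73 for AT2G35750, 1.64 for the asparaginase gene ASPGB1, 1.59 for AT3G05150 and 0.82 for the lectin gene AT2G25980. CRU3, whose triple mutant libraries held 2 and 0 reads at 28 °C, had an edgeR adjusted p of 0.0209 for the same difference. Of these, CRA1 and AT2G25980 kept the call without any 1 library. Between the backgrounds the edgeR adjusted p was 0.000317 for CRU3, 0.000211 for AT2G01422 and 0.00214 for AT1G63540, but without mrg1 mrg2 28 °C replicate 2 it was 0.941, 0.975 and 1.0. Log2 differences between the backgrounds were 2.04 for BCAT2, 2.80 for AT2G39040, 2.52 for THA1, 2.28 for GAT1_2.1 and 2.22 for AGP30, and the edgeR adjusted p of AACT1 was 0.000143. MRD1 (edgeR adjusted p = 4.46e-20) had 0.118 and 0 CPM in WT at 28 °C, 33.0 and 37.5 CPM in mrg1 mrg2, 31.8 and 28.4 CPM in pif4 and 29.99 and 29.2 CPM in the triple mutant, so all 3 mutants stood above WT.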

How the results depend on the processing

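No recomputed single gene that was called in the main fit or in the alternative reversed its direction. Turns of sign in genes called in neither were not counted. The balance of calls and some list medians did turn with library totals. With that scaling in place of TMM, the triple mutant against pif4 gave 1631 higher and 384 lower at 28 °C and 223 lower at 22 °C, mrg1 mrg2 against WT at 28 °C 929 lower, the difference between temperatures 8 higher and 13 lower, and the difference between backgrounds 302 higher and 147 lower. The clock median went from -0.08 to 0.05, the light signalling median from -0.04 to 0.09, and the growth genes linked to PIF4 from 1 higher and 2 lower to 2 and 1. For the triple mutant against pif4 at 28 °C, DESeq2 size factors used in edgeR gave 677 higher and 1207 lower. Leaving out the ribosomal RNA gene AT3G41768 gave 715 and 1143. With the DESeq2 Wald test the counts were 339 higher (triple mutant against pif4, 28 °C), 327 higher and 376 lower (22 °C), 795 higher and 979 lower (mrg1 mrg2 against WT, 28 °C), 147 lower (temperatures) and 147 higher (backgrounds). The replicate block, for numbers not taken as pairs (correlation of same-numbered deviations 0.0665 for the compared groups), gave 803 higher and 1438 lower for the triple mutant against pif4 at 28 °C, and 33 higher and 172 lower for the temperatures. Confined to the 28 °C libraries, a choice made after seeing the data, it gave 725 and 1210. Leaving out each library in turn gave 368 to 393 higher and 722 to 851 lower (triple mutant against pif4, 28 °C), 247 to 357 and 252 to 341 (22 °C), 713 to 927 and 857 to 1012 (mrg1 mrg2 against WT, 28 °C), 1637 to 1865 higher (22 °C), 3 to 13 and 32 to 67 (temperatures), and 320 to 468 lower (backgrounds); fewer libraries entered those fits. For the other changes the cause was not tested. Of 163 single genes called in the triple mutant against pif4 at 28 °C, 93 were called under every alternative, 65 lost the call without some library and 37 with library totals. For the temperatures 4 of 33 single genes held throughout and for the backgrounds 36 of 67. In the simulated counts, with 2 libraries per group, 40% of 1.5-fold and 79% of 2-fold changes were recovered, rates that need not hold for the data.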
